A study of Mus musculus with 12 samples.

Results

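Th17 cells kept in a dish were set against every CD4+ T cell population of the series that had come straight from a mouse, to describe which genes stood apart in culture and nowhere else. Of the 12 arrays, 3 held RNA of cultured cells and 9 held RNA of ex vivo cells in 3 groups of 3. The cultured group was made from naive CD4+ cells of B6.2d2 mice, a line with a transgenic antigen receptor specific for myelin oligodendrocyte glycoprotein (MOG), by differentiation toward Th17 in vitro. The cytokines, medium and duration of that culture were not given in the sources used here. The first ex vivo group, called naive below, was CD4+ T cells of the spleen of B6.2d2 mice. The second, called transferred, was CD4+ cells from the central nervous system (CNS) of Rag1-/- mice, which lack lymphocytes of their own, at the peak of experimental autoimmune encephalomyelitis (EAE) after they had received B6.2d2 Th17 cells. The third, called immunised, was CD4+ cells from the CNS of C57BL/6 mice at peak EAE after immunisation with MOG35-55 peptide, with the mice's own T cell repertoire and no transgenic receptor named. The naive, cultured and transferred cells thus share a transgenic receptor, and the immunised group does not. Cell purity and the age and sex of the mice were not given in the sources used here. The 3 arrays of each group came from 3 separate experiments.

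Th17 cells are helper T cells that secrete IL-17A, IL-17F and IL-22 and they drive the tissue inflammation of EAE. Cells that divide must make membrane, and SREBP transcription factors raise the enzymes of cholesterol and unsaturated fatty acid synthesis when sterols are short. Type I interferon induces a set of antiviral genes, many of which are expressed at a low tonic level in resting T cells.

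Levels are log2 signals of single-colour arrays with each array's 75th percentile set to 0, so a level describes a probe against its own array and cannot be ranked between genes. All spots were below saturation, and 57.0 to 64.9% of the spots were well above background on an array. Within groups, arrays correlated at 0.976 to 0.982 for naive, 0.954 to 0.985 for cultured, 0.976 to 0.984 for transferred and 0.982 to 0.991 for immunised cells, over genes. The median SD over a group's 3 arrays was 0.35 for cultured cells and 0.206 to 0.259 for the others, so the cultured arrays were the least alike. Each of the 3 slides carried 1 array of every group, always at the same position, and position on the slide and group cannot be told apart. Macrophage and monocyte markers had a mean level of 4.10 to 5.35 on the 6 CNS arrays, against -2.36 to -1.67 on the cultured and -3.72 to -3.41 on the naive arrays. In such bulk RNA, fewer cells of a type and less RNA per cell cannot be told apart.

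Against the equally weighted mean of the ex vivo groups, 6100 of 18631 genes tested were called (32.7%), 3352 higher in culture (18.0%) and 2748 lower (14.7%), by limma with Benjamini-Hochberg adjustment at 0.05. The median difference over all genes was 0.05. Since a mean hides where the groups lie, a gene was called culture-only when it passed the same test in 1 direction against naive, transferred and immunised cells separately and all 3 cultured arrays lay beyond all 9 ex vivo arrays. Against naive cells alone 3672 genes (19.7%) were higher and 3792 (20.4%) lower, against transferred cells 2882 (15.5%) and 2385 (12.8%), and against immunised cells 3311 (17.8%) and 2550 (13.7%). By the rule on all 3, 1012 genes (5.43%) were culture-only higher and 441 (2.37%) culture-only lower. Of these, 126 higher and 0 lower genes passed the detection filter through the cultured arrays alone, as did 361 of all genes tested. For such genes a difference in detection was fixed by the filter, which favours a higher call and adds to the higher count. Among the 14919 genes well above background on all 12 arrays, 797 were culture-only higher and 354 lower. A further 26 and 22 genes passed all 3 tests but had an overlapping array, and without the tests 1590 (8.53%) and 832 genes (4.47%) had no overlap. The size of a culture-only gene is given below as its gap, the log2 difference from the nearest ex vivo group. The median gap was 1.19 for higher and -1.32 for lower genes, and the smallest were 0.41 and -0.39. The gap reached 2-fold for 663 higher (3.56%) and 301 lower genes (1.62%), and 3 log2 units for 106 and 39.

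The same rule applied to each other group gave 2242 naive-only higher (12%) and 1918 naive-only lower genes (10.3%), 65 (0.349%) and 66 (0.354%) for transferred cells, and 140 (0.751%) and 82 (0.440%) for immunised cells. The ex vivo group nearest to culture was naive for 257 of the higher genes, transferred for 362 and immunised for 393. Of the lower genes it was naive for 194, transferred for 161 and immunised for 86. Over all 18631 genes tested it was naive for 6151, transferred for 6725 and immunised for 5755. The 3 cultured arrays differed in size: the median difference of the higher set was 1.48, 1.59 and 2.08 for replicates 1, 2 and 3, and that of the lower set was -1.56, -1.72 and -1.99. Replicate 3 stood farthest out in both directions. RefSeq names 832 of the higher and 334 of the lower genes as protein-coding, and 144 and 89 had no RefSeq name. Of 73 culture-only higher features with a cultured mean above 6, 55 were not named as protein-coding, and all 55 correlated above 0.9 over the 12 arrays with the probe of Gapdh, a glycolytic enzyme with many processed copies. These 55 were picked as higher in culture on the same arrays, so a correlation with a gene higher in culture is partly built in. Their median gap was 1.05, and that of Gapdh was 0.41. Whether they are copies of Gapdh was not tested. Near-identical copies cannot be told apart by such probes, and those 55 features count as separate genes in the totals. With protein-coding names alone, 866 genes were culture-only higher and 361 culture-only lower.

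**Figure D1:**
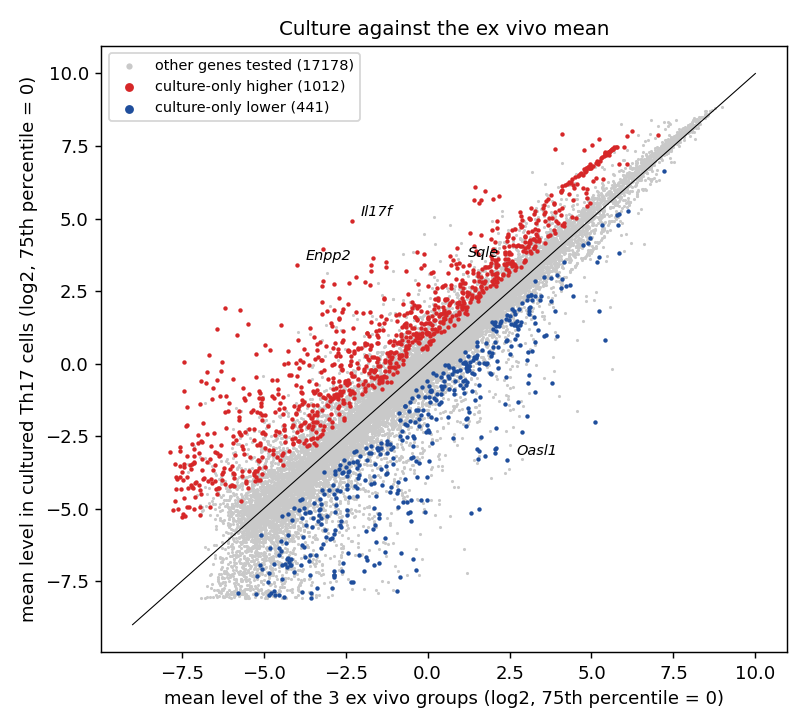
Mean level in cultured Th17 cells (vertical axis) against the mean level of the 3 ex vivo groups (horizontal axis), both in log2 units with each array's 75th percentile at 0, for the 18631 genes tested; the line marks equality. The 1012 culture-only higher genes are red and the 441 culture-only lower genes blue, and the narrow red streak at the upper right holds the features that follow Gapdh.

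Il17f, Enpp2, Sqle and Oasl1 mark the cultured state, and were chosen as its markers with earlier results of these data in view, so their values are a description. Il17f encodes the cytokine IL-17F (probe at mm9 chr1:20768074-20769419). Its levels were 4.77, 6.50 and 3.46 on the cultured arrays, -3.37, -5.19 and -5.00 on the naive, -2.64, -1.0 and -1.84 on the transferred and -0.38, 0.20 and -1.55 on the immunised arrays. No cultured array came near the highest ex vivo array, and naive cells were lowest. The difference from the ex vivo mean was 7.22 ± 0.64 (SE), and those from naive, transferred and immunised cells were 9.43, 6.74 and 5.49 (n = 3 arrays a group). The smallest was 4.70 without cultured replicate 2.

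Enpp2 encodes autotaxin, the secreted enzyme that makes lysophosphatidic acid (mm9 chr15:54670921-54670980). Its levels were 1.94, 2.14 and 6.08 in culture, -4.82, -6.21 and -4.02 in naive, -4.02, -4.49 and -3.59 in transferred and -4.61, -2.56 and -1.57 in immunised cells. All cultured arrays were above all ex vivo arrays, whose groups overlapped, and cultured replicate 3 was far above the other two. Enpp2 was 78.8-fold higher in culture than in the nearest group, the immunised cells. Its gap was 6.30, and it was 4.95 without cultured replicate 3 and 5.45 without immunised replicate 1. Below, "at least" marks a fold computed with arrays under background raised to their own detection floor. It is a bound for this processing only, and other settings can give smaller folds.

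Sqle encodes squalene epoxidase, an enzyme of cholesterol synthesis (mm9 chr15:59162688-59162747). It stood at 3.39, 3.24 and 3.83 in culture, 1.81, 0.30 and 1.18 in naive, 0.78, 1.0 and 0.64 in transferred and 0.85, 1.12 and 0.93 in immunised cells. The 9 ex vivo arrays formed a single band below the cultured arrays, and the differences were 2.39, 2.68 and 2.52 from the 3 groups. Oasl1 encodes an oligoadenylate synthetase-like protein induced by interferon (mm9 chr5:115387861-115387920). It stood at -3.28, -2.90 and -3.84 in culture, 1.85, 3.15 and 1.97 in naive, 2.44, 2.44 and 2.62 in transferred and 2.28, 1.73 and 3.38 in immunised cells. Here the ex vivo groups again lay together, and culture was 5.66, 5.84 and 5.80 log2 units below them.

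Among culture-only higher genes well above background on all 12 arrays and named here, Il17f had the largest gap (5.49). Fbxo2, a substrate receptor of a ubiquitin ligase that binds glycoproteins, had the smallest standard error of the 12 leading genes named. It stood at 0.59, 1.43 and 0.76 in culture against -4.42 to -2.78 on the ex vivo arrays, a difference of 4.41 ± 0.21 (adjusted p = 1.01e-06, limma).

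The other leading genes had varied known roles. Krt18, a keratin of epithelial cells, stood at 2.69, 3.25 and 4.98 in culture, -4.56 to -3.35 in naive, -1.04 to -0.99 in transferred and -0.49 to 0.30 in immunised cells (gap 3.74, and 3.07 without cultured replicate 3). Espn, an actin-bundling protein, had a gap of 3.74 and Itga7, a laminin-binding integrin chain, one of 4.08. Their gaps were 2.94 and 2.73 without cultured replicate 3, which was the highest array for both. Muc13, a membrane mucin, stood at 1.77, 1.57 and 2.33 in culture and -4.18 to -1.06 ex vivo (gap 3.51). Nlgn2, an adhesion molecule known from synapses, had a gap of 3.25. Avpi1 stood at 6.09, 6.99 and 5.14 in culture and 0.40 to 2.70 ex vivo (gap 3.86). Mgarp, a mitochondrial protein, and Dmwd had gaps of 3.25 and 3.20, and that of Mgarp was 2.62 without cultured replicate 3. Gpr15, a homing receptor of T cells, stood at 0.74, 0.87 and -0.21 in culture and -4.96 to -1.53 ex vivo (gap 3.19, and 2.47 without transferred replicate 3).

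**Figure D2:**
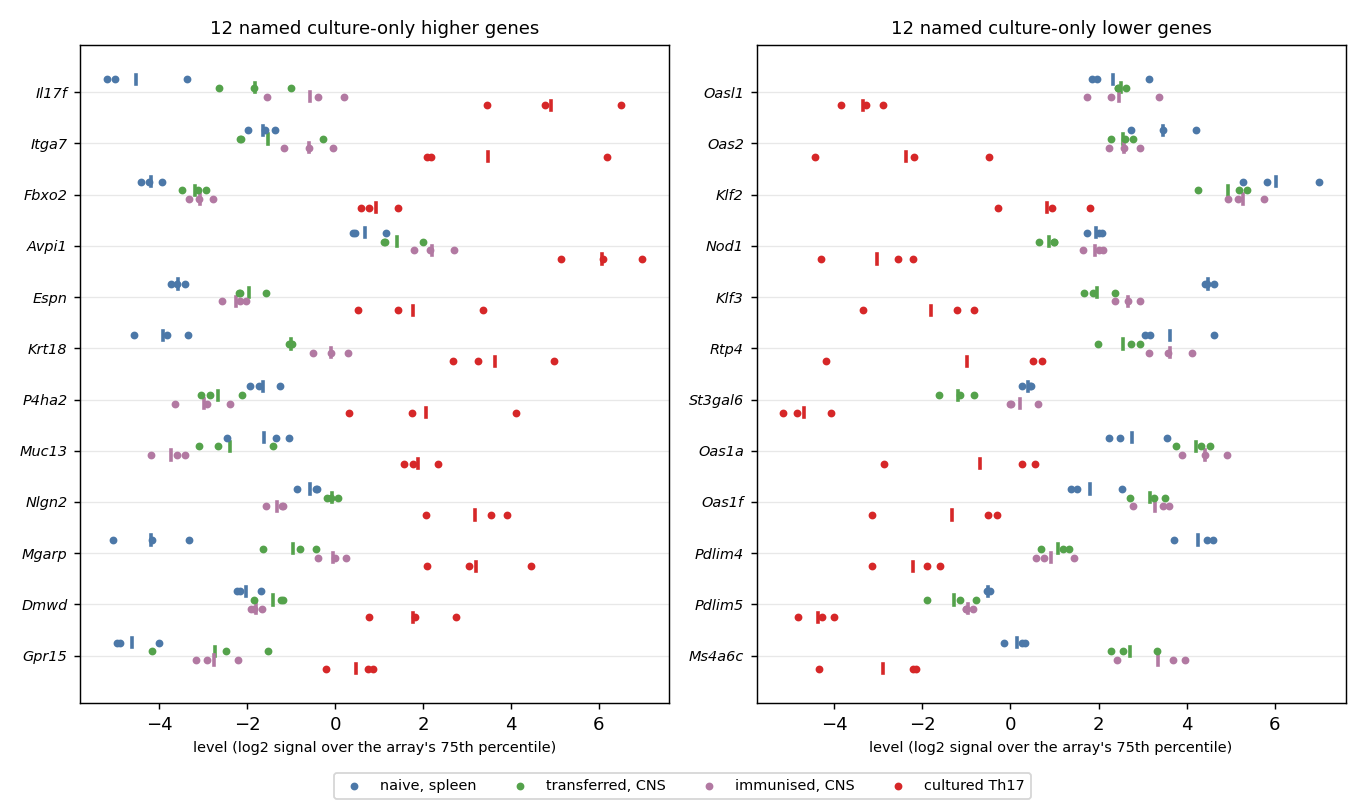
Level of the 12 culture-only higher (left) and 12 culture-only lower genes (right) with the largest gaps among named genes well above background on all 12 arrays, in log2 units with each array's 75th percentile at 0. Points are arrays, vertical ticks are means of 3, and colours are groups; the gaps run from 5.49 (Il17f) to 3.19 (Gpr15) on the left and from -5.66 (Oasl1) to -3.04 (Ms4a6c) on the right.

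Genes that were near background outside culture include Foxf1, a forkhead transcription factor known from mesenchyme. Foxf1, Vldlr, Gipr and Sval1 passed the detection filter through the cultured arrays alone, so that they differed in detection was fixed by the filter and their folds are a description. Foxf1 stood at 1.72, 2.28 and 1.73 in culture and was not well above background on 7 of 9 ex vivo arrays, a difference of at least 102-fold. Vldlr, the very-low-density lipoprotein receptor, was at least 49.6-fold and Gipr, a receptor for an incretin hormone, at least 47.6-fold higher. Fam183b, which was detected on all naive arrays, the nearest group, was 103-fold higher (gap 6.69). In Fam183b, Vldlr and Gipr, cultured replicate 3 was the highest, with 5.19, 3.63 and 3.90 against 0.74 or less on the other cultured arrays. Without it their gaps went from 6.69 to 5.03, from 6.12 to 4.80 and from 7.33 to 5.41. Sval1 was at least 37.3-fold higher. Its gap of 6.06 was 4.06 without cultured replicate 3, and its call was lost without transferred replicate 2 (adjusted p = 0.0518, limma). Folds of such dim genes also depend on the background correction: with normexp the gap was 4.83 for Foxf1, 4.97 for Fam183b, 4.03 for Vldlr, 3.72 for Gipr and 3.63 for Sval1, in each case under the fold given here.

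The enzymes of cholesterol synthesis were higher in culture than in all 3 ex vivo groups. Of 24 members tested, 22 rose against the ex vivo mean, none fell and 19 were culture-only higher, with a median difference of 1.87 beside 0.05 over all genes. The median difference was 1.97 from naive, 2.06 from transferred and 1.82 from immunised cells. Within the 3 slides it was 1.77, 1.83 and 1.84. The mean level of the list was 1.76 to 1.99 on cultured, -0.33 to 0.40 on naive, -0.21 to 0.03 on transferred and 0.05 to 0.14 on immunised arrays. The CNS arrays lay within the range of the naive arrays, and the cultured arrays lay above it.

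Of the tested enzymes that lead to the sterol ring, Pmvk was the 1 that did not pass. Hmgcs1, which makes HMG-CoA at the head of the pathway, stood at 4.26, 4.25 and 4.32 in culture, 2.19, 1.68 and 2.06 in naive, 1.71, 2.0 and 2.05 in transferred and 1.90, 1.84 and 1.98 in immunised cells. The spread within groups was small beside the difference of 2.34 ± 0.14 (adjusted p = 2.45e-06, limma). Its promoter is shown because it is the one member of the list whose RefSeq window holds the sterol element TCACNCCAC. The bases are the 250 upstream of the start at GRCm38.p6 chr13:119690101-119690350, plus strand, with the element in capitals:

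Hmgcs1: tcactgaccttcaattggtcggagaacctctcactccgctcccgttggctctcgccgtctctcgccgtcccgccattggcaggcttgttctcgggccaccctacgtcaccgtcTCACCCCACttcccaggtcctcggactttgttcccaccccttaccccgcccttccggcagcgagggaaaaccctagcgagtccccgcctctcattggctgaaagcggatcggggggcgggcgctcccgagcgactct

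The element begins 137 bases before the start. It was found, on either strand, in 1 of 17 members that have a window of 250 bases before and 50 after the start, and in 1.44% of the 27025 genes with such windows. Among tested genes with a window the share was 1.36%, and among culture-only higher genes 1.34%. A match is a description of letters and no evidence of binding.

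Fdps, farnesyl diphosphate synthase, stood at 4.84, 4.67 and 5.21 in culture and 1.65 to 2.81 ex vivo (gap 2.50). Idi1, the isomerase before it, had a gap of 2.06 and Fdft1, squalene synthase, one of 1.71. Lss, which closes the ring, stood at 0.42, 0.39 and 1.05 in culture and -1.99 to -1.32 ex vivo (gap 2.23). Hsd17b7, a ketoreductase of the later steps, had the largest gap of the list (3.16). It stood at 0.52, 1.60 and 1.53 in culture, -2.25, -3.07 and -2.61 in naive, -2.32, -2.25 and -1.27 in transferred and -2.44, -2.10 and -2.29 in immunised cells. The highest ex vivo array was a transferred one, still below every cultured array. Dhcr7, which acts at the end of the pathway, had the smallest gap of the culture-only members (0.63).

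The regulators rose too. Srebf2, the transcription factor of this pathway, was higher by 1.71 than the ex vivo mean and Insig1, the sterol-dependent brake, by 1.77. Both were culture-only higher. Sc5d rose by 1.10 and Tm7sf2 by 1.25, but these missed the culture-only rule. Ebp (0.29) and Pmvk (0.63) did not pass the test.

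**Figure D3:**
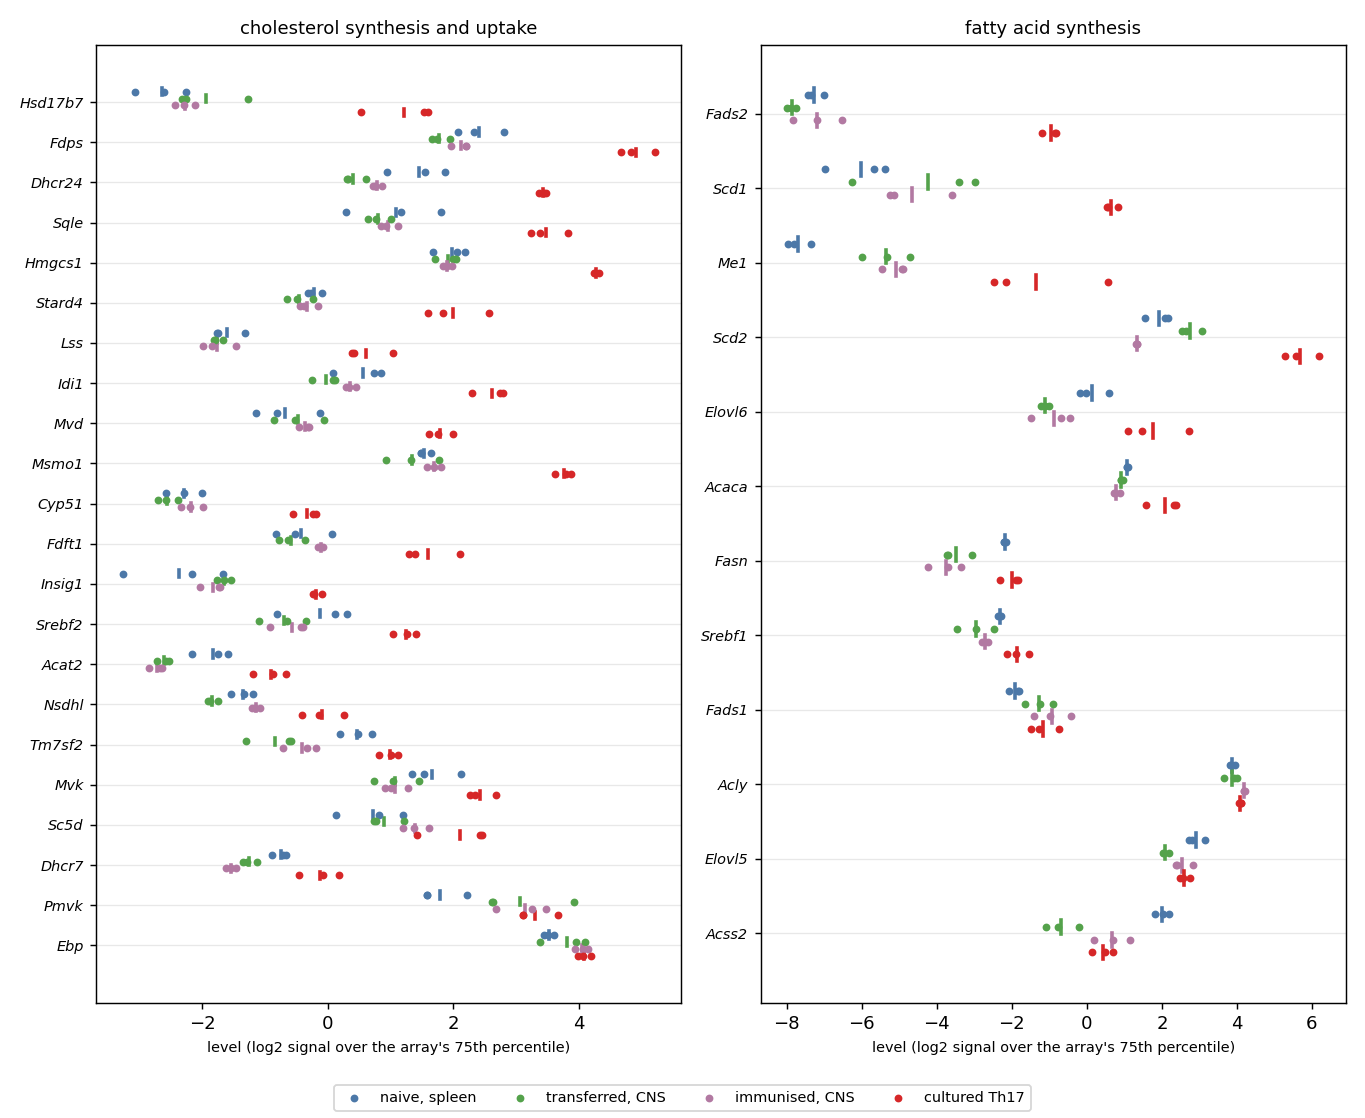
Level of 22 members of the cholesterol list (left) and the 12 of the fatty acid list (right), in log2 units with each array's 75th percentile at 0, ordered by the difference of culture from the ex vivo mean. Points are arrays, ticks are means of 3, and red points (culture) lie to the right of all others for 18 and 6 of these genes that also pass the tests.

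Fatty acid genes were higher in culture in part. Of 12 members, 8 rose and none fell against the ex vivo mean and 6 were culture-only higher, with a median difference of 1.15. Against naive cells 6 were higher and 1 lower, against transferred cells 9 and 0, and against immunised cells 8 and 0. Scd1, Fads2 and Me1 passed the detection filter through the cultured arrays alone, so that they differed in detection was fixed, and their values are a description. Scd2, a stearoyl-CoA desaturase that introduces the first double bond, stood at 5.29, 5.57 and 6.18 in culture, 1.54, 2.17 and 2.09 in naive, 3.07, 2.53 and 2.63 in transferred and 1.32, 1.35 and 1.34 in immunised cells (gap 2.93). Scd1, its paralog, stood at 0.54, 0.57 and 0.82 in culture and was at least 24.2-fold higher, with a gap of 4.87 that was 3.84 without transferred replicate 2. Fads2, the delta-6 desaturase of polyunsaturated fatty acids, stood at -0.84, -0.83 and -1.18 in culture and was not well above background on any of the 9 ex vivo arrays, so it was at least 23.6-fold higher. With normexp background correction the gaps were 3.32 for Scd1 and 2.73 for Fads2, smaller than these folds.

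Me1, malic enzyme and a source of NADPH, was 13.3-fold higher than in the nearest group (gap 3.74, 2.78 without cultured replicate 3 and 2.07 with normexp). Elovl6, an elongase, had a gap of 1.63 and Acaca, acetyl-CoA carboxylase, one of 1.01. Fasn, fatty acid synthase, rose by 1.14 and Srebf1, its transcription factor, by 0.80 against the ex vivo mean without being culture-only. Acly (0.11), Elovl5 (0.09), Fads1 (0.20) and Acss2 (-0.22) did not pass. Of the 6 culture-only members, 3 were left when genes had to be well above background on all 12 arrays.

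Sterol efflux genes under the liver X receptor ran the other way in number: 5 of 7 fell, 1 rose, and the median was -1.44. Abca1 (-2.32) and Abcg1 (-1.15), cholesterol exporters, fell against the ex vivo mean, as did Nr1h3 (-2.89), the receptor itself, and Smpdl3a (-1.44). These 4 are also expressed by macrophages, and none was culture-only. Nr1h3 stood at -3.05, -2.13 and -3.86 in culture and -2.76 to -2.38 in naive cells, which overlap, but -0.09 to 2.04 on the CNS arrays, where macrophage markers were high; the part of those markers in the difference was not tested. Mylip, a ubiquitin ligase, was culture-only lower: it stood at 0.05, -1.22 and -1.32 in culture, 2.04 to 2.48 in naive, 0.15 to 0.93 in transferred and 0.36 to 0.73 in immunised cells (gap -1.33). Its call was lost without cultured replicate 2, transferred replicate 1 or immunised replicate 1 (adjusted p = 0.0546, 0.0569 and 0.054, limma). Lpcat3, a membrane phospholipid acyltransferase, was culture-only higher (gap 0.98), and Nr1h2 differed by 0.05. Without cultured replicate 3 the list median was -0.92.

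The Th17 programme was higher in culture than ex vivo, most of all against naive cells. Of 19 members, 16 rose and none fell against the ex vivo mean, 5 were culture-only higher and the median was 2.03. The median difference was 4.20 from naive, 1.46 from transferred and 1.13 from immunised cells. Against naive cells 17 were higher and 0 lower, against transferred cells 9 and 1, and against immunised cells 6 and 1. Batf, a pioneer AP-1 factor of this lineage, had a gap of 1.47, and of 0.95 without cultured replicate 3. Il12rb1, the receptor chain shared by IL-12 and IL-23, stood at 4.44, 4.18 and 4.46 in culture, 1.15, 1.91 and 0.41 in naive, 2.68, 3.08 and 2.94 in transferred and 3.04, 3.24 and 3.42 in immunised cells (gap 1.13). The cultured arrays were above all others, closest to the immunised cells, while transferred and immunised cells overlapped. The call was lost without cultured replicate 1 or immunised replicate 1 or 2 (adjusted p = 0.0535, 0.0718 and 0.0511, limma), and with arrays centred on T cell core genes.

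The 2 cytokine genes Il17a and Il17f differed in pattern. Il17a rose by 4.58 against the ex vivo mean but stood at 5.46, 5.55 and 2.41 in culture and 2.99, 4.79 and 2.70 in immunised cells, which overlap. Il22 rose by 4.06 and Il23r, the IL-23 receptor, by 4.59, and in both cultured replicate 3 was far below the other cultured arrays. Il22 stood at 1.67, 4.17 and -2.04 in culture and -0.30 to 0.36 in immunised cells, and Il23r at 1.95, 3.24 and -2.18 against -2.55 to -1.18. Cultured replicate 3 lay below the immunised arrays for Il22 and within their range for Il23r. Without cultured replicate 3, 9 members were culture-only higher. Ahr (-0.27), Ccr6 (-2.15) and Il24 (2.13) did not pass.

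Receptors for lipid mediators were among the higher genes although their list as a whole was not. Of 17 eicosanoid and lysophospholipid genes, 5 rose and 5 fell against the ex vivo mean, with a median of -0.70. That mean joined opposite shifts: the median difference was 0.97 from naive, -0.84 from transferred and -1.06 from immunised cells. Against naive cells 7 were higher and 0 lower, against transferred cells 5 and 6, and against immunised cells 5 and 7. The 4 culture-only members were Enpp2 and 3 receptors. Ltb4r1, the high-affinity receptor for the chemoattractant leukotriene B4, stood at 5.65, 5.67 and 5.58 in culture, -3.31 to -1.46 in naive, 2.54 to 3.40 in transferred and 3.62 to 3.84 in immunised cells (gap 1.86). The order of groups was naive, transferred, immunised and culture, with no overlap. Ptgir, the prostacyclin receptor, stood at 1.17, 0.88 and 0.84 in culture and -1.52 to 0.18 ex vivo (gap 1.61). Ptger2, a receptor for prostaglandin E2, stood at 0.94, 2.05 and 1.27 in culture, -4.48 to -3.55 in naive and -1.29 to 0.04 in CNS cells (gap 1.54). With arrays centred on T cell core genes, Ptgir and Ptger2 lost their calls.

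Hypoxia-responsive genes, which the transcription factor HIF induces when oxygen is low, were higher in part. Of 13 tested, 7 rose and none fell against the ex vivo mean and 4 were culture-only, with a median of 1.31. Against naive cells 8 were higher and 1 lower, against transferred cells 7 and 1, and against immunised cells 5 and 1. Ddit4, an inhibitor of mTORC1, stood at 7.27, 7.72 and 7.61 in culture, 4.17, 4.56 and 4.20 in naive, 5.52, 5.31 and 5.27 in transferred and 5.37, 5.65 and 5.09 in immunised cells (gap 2.16). The values were close within every group, and both CNS groups lay between naive and culture. P4ha2, a subunit of the collagen prolyl hydroxylase, stood at 0.32, 1.76 and 4.12 in culture and -3.63 to -1.24 ex vivo (gap 3.70, and 2.67 without cultured replicate 3). Egln3, an oxygen-sensing hydroxylase, stood at 2.77, 2.98 and 4.15 in culture, -2.47 to -2.04 in naive and 0.56 to 1.28 in CNS cells (gap 2.39). Adm, the peptide adrenomedullin, was 18.1-fold higher than in transferred cells, the nearest group (gap 4.18, 3.12 without cultured replicate 3 and 3.06 with normexp), and was not well above background on any naive or immunised array.

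The promoters of Ddit4 and P4ha2 are shown as the 2 of the 4 culture-only members with a window holding the hypoxia response element ACGTGC, in capitals. They are the 250 bases upstream of the start at GRCm38.p6 chr10:59951771-59952020, minus strand, and chr11:54100674-54100923, plus strand:

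Ddit4: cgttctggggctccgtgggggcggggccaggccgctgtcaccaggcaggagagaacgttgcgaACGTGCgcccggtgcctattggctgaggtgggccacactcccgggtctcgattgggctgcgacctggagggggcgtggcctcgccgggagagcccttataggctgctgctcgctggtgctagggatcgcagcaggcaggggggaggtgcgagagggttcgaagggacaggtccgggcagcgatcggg

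P4ha2: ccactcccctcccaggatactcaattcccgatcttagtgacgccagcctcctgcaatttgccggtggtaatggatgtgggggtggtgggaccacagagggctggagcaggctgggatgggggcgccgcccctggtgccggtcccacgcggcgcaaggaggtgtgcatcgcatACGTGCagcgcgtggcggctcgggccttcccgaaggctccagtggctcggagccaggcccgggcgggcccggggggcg

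The element begins 187 bases before the start in Ddit4 and 78 before it in P4ha2. It was found in the windows of 7 of 12 hypoxia genes (58.3%) and of 6.68% of all genes with a window. Among tested genes with a window the share was 8.91%, and among culture-only higher genes 9.84%. Such a match is no evidence of binding.

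Vegfa, a classical HIF target, differed by 0.20 and did not pass. The mean level of the hypoxia list differed between cultured arrays, at 0.86, 1.60 and 3.12, and was -1.16 to -0.92 in naive and 0.21 to 0.78 in CNS cells. Without cultured replicate 1, 7 members were culture-only higher, and the list median was 1.85. Within slides 1, 2 and 3 the median was 0.33, 1.58 and 2.03.

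Glycolysis genes had list means of 4.31, 4.72 and 5.40 on the cultured arrays, 1.91 to 2.05 on naive and 3.60 to 4.34 on CNS arrays. Of 21 genes, 17 rose and none fell against the ex vivo mean, with a median of 1.07, and 5 were culture-only. The median difference was 2.09 from naive, 0.73 from transferred and 0.59 from immunised cells. Against naive cells 17 were higher and 0 lower, against transferred cells 9 and 1, and against immunised cells 6 and 1. Slc2a3, the glucose transporter GLUT3, stood at 3.48, 4.10 and 5.95 in culture and 0.30 to 2.31 ex vivo (gap 2.27, and 1.54 without cultured replicate 3). Aldoc, an aldolase also known as an astrocyte gene, stood at 5.10, 5.30 and 6.54 in culture, -1.72 to -0.50 in naive and 2.04 to 3.76 in CNS cells (gap 2.26). The other culture-only members were Pgk1 (1.78), Pkm (1.01) and Ldha (0.61), and the array design places the Pgk1 probe on chromosome 3 (mm9 chr3:57906830-57906894) while RefSeq has Pgk1 on chromosome X, so signal from a copy cannot be told apart. Hk1 differed by 0.08. Without cultured replicate 1 the culture-only count was 10, and with arrays centred on T cell core genes it was 2, with Pgk1 and Pkm among those lost.

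Cell cycle genes were higher in culture, mainly against naive cells. Of 28 tested, 19 rose and none fell, with a median of 1.29, and 1 was culture-only. The median difference was 2.43 from naive, 0.30 from transferred and 0.84 from immunised cells. The culture-only member was Aurka, a mitotic kinase, which stood at 2.44, 1.73 and 2.58 in culture, -1.19 to -0.37 in naive, 0.94 to 1.35 in transferred and 0.30 to 0.73 in immunised cells (gap 1.17). With arrays centred on T cell core genes its gap was 0.62 and its call was lost. Other mitotic genes rose against the ex vivo mean, such as Ccnb1 (1.70), Cdk1 (1.60) and Plk1 (1.47). The replication genes Pcna (-0.17) and Mcm2 (-0.08) did not pass.

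Interferon-stimulated genes were lower in culture than in all 3 ex vivo groups, with large differences for a part of the list. Of 36 tested, 19 fell, 1 rose and 12 were culture-only lower, with a median of -1.01 beside 0.05 over all genes. The median difference was -1.08 from naive, -0.96 from transferred and -1.57 from immunised cells. Within the 3 slides it was -0.58, -0.45 and -1.78. The mean level of the list was 0.27, 0.67 and -1.26 on the cultured arrays, 1.21 to 2.34 on naive, 1.28 to 1.58 on transferred and 1.75 to 2.36 on immunised arrays. Cultured replicate 3 was the lowest, and all 3 cultured arrays lay below all others. Macrophages also express these genes. Macrophage markers were at -3.72 to -3.41 on the naive, -2.36 to -1.67 on the cultured and 4.10 to 5.35 on the CNS arrays, and their part in the difference was not tested. The median was -0.45 without cultured replicate 3, when 12 members were again culture-only lower, and -1.56 without cultured replicate 2.

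The oligoadenylate synthetase and synthetase-like genes included the largest decreases of the list, those of Oasl1, Oas2 and Oasl2, while Oas3 (-0.32) did not pass. Oas2 stood at -2.18, -0.50 and -4.42 in culture, 2.74, 4.21 and 3.46 in naive, 2.29, 2.60 and 2.78 in transferred and 2.57, 2.25 and 2.94 in immunised cells (gap -4.93, and -3.90 without cultured replicate 3). Even the highest cultured array was below every ex vivo array. Oasl2 stood at -2.74, -0.95 and -5.58 in culture and 0.70 to 3.23 ex vivo, at least 21.8-fold lower. Its gap of -4.47 was -3.22 without cultured replicate 3 and -3.87 without naive replicate 2. Over the settings that keep all arrays the smallest gap of Oasl2 was -3.4, less than that fold. Oas1a stood at 0.26, 0.56 and -2.87 in culture and 2.24 to 4.91 ex vivo (gap -3.44), and Oas1f had a gap of -3.12. Without cultured replicate 3 these gaps were -2.34 and -2.21. Oas1a and Oas1f belong to a cluster of near-identical genes, so the assignment of signal between them is uncertain.

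Other antiviral effectors fell with them. Ifit3, which binds viral RNA complexes, stood at -2.03, -0.88 and -6.94 in culture, 1.82, 3.08 and 1.49 in naive, 1.55, 0.47 and 0.32 in transferred and 1.51, 1.50 and 2.07 in immunised cells, at least 12-fold lower. Its gap of -4.06 was -2.23 without cultured replicate 3, and at smallest -2.65 over the settings that keep all arrays. The call was lost without transferred replicate 1, 2 or 3 (adjusted p = 0.088, 0.0639 and 0.0629, limma). Rsad2, viperin, stood at -3.51, -2.84 and -5.41 in culture, -1.72, -0.33 and -2.10 in naive and 0.15 to 1.75 in CNS cells (gap -2.54). Rtp4 stood at 0.71, 0.51 and -4.17 in culture and 1.99 to 4.62 ex vivo (gap -3.54, and -1.95 without cultured replicate 3). Its call was lost without transferred replicate 1, 2 or 3 (adjusted p = 0.0744, 0.0864 and 0.0584, limma). Usp18, which restrains interferon signalling, stood at -2.24, -1.51 and -0.05 in culture and 0.78 to 2.64 ex vivo (gap -2.38). In Usp18 it was replicate 3 that lay closest to the ex vivo arrays. Irf7, the factor that amplifies interferon production, had a gap of -2.25, Mx2 one of -2.87, Ifit2 one of -2.40 and Ifi44 was at least 5.28-fold lower.

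The promoters of Ifit3, Oas1a and Rsad2 are the 3 among the 8 culture-only lower members with a window that hold the interferon-stimulated response element (GAAA, any 2 bases, GAAA) on either strand, in capitals. They are the 250 bases upstream of the start at GRCm38.p6 chr19:34583279-34583528, plus strand, chr5:120907526-120907775, minus strand, and chr12:26456453-26456702, minus strand:

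Ifit3: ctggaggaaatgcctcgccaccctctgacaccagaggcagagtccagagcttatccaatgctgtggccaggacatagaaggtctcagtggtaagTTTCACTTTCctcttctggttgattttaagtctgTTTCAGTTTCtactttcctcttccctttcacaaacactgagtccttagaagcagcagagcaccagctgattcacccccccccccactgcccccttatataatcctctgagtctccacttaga

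Oas1a: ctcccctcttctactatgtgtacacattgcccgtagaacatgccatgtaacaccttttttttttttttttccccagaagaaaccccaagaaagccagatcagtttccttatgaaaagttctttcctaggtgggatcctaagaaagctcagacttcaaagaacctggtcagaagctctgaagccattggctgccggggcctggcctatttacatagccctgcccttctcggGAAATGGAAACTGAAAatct

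Rsad2: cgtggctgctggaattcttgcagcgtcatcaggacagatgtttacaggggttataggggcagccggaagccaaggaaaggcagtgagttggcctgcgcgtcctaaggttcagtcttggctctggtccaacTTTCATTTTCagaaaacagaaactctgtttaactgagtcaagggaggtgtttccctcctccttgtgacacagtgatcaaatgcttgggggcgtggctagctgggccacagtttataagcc

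Ifit3 has 2 matches on the opposite strand, 156 and 122 bases before the start, Oas1a has 2 overlapping ones at 20 and 14, and Rsad2 has 1 on the opposite strand at 120. The element was found in 14 of 25 interferon-stimulated genes with a window (56.0%) and in 3.99% of all genes. Among tested genes with a window the share was 4%, and among culture-only lower genes 5.99%. These matches are no evidence of binding.

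Part of the list did not pass the test: Ly6e differed by -0.20, Bst2 by -0.48, Gbp2 by 0.20 and Irf9 by -0.08. Stat2, a subunit of the interferon-activated transcription factor, was the member that rose (0.63) against the ex vivo mean. No member was called higher against naive, transferred or immunised cells taken singly. Genes of MHC class I presentation were shifted little, with 4 of 11 lower, none higher and a median of -0.31. H2-D1, a class I heavy chain, was culture-only lower by 0.48, but its gap was -0.01 with arrays centred on T cell core genes, and 9 of the 12 settings that leave out 1 array lost its call (adjusted p of 0.0529 to 0.121, limma).

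**Figure D4:**
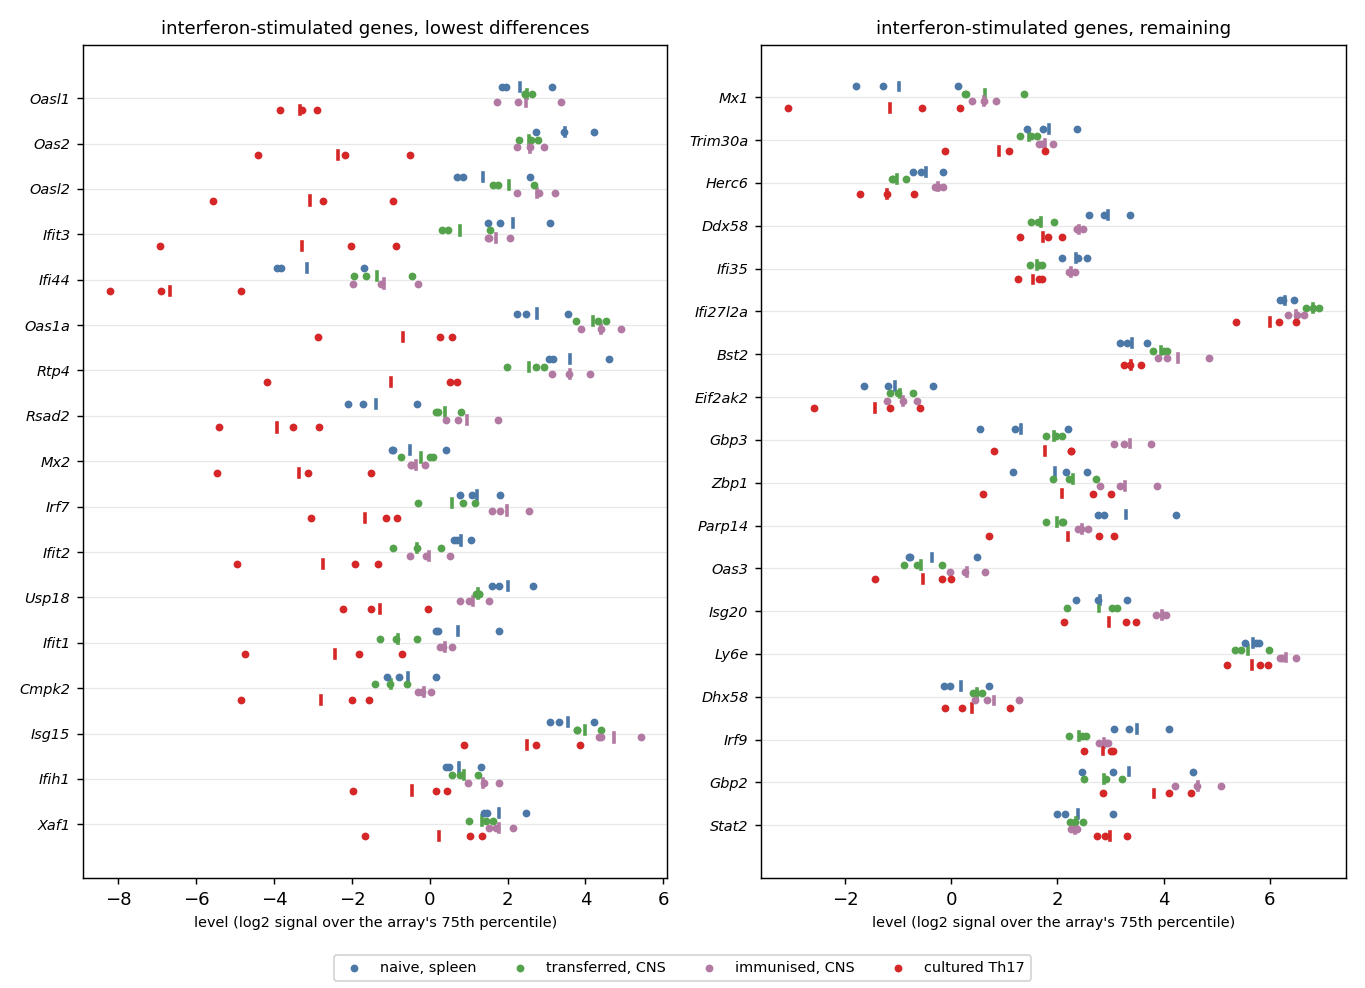
Level of 35 interferon-stimulated genes in log2 units with each array's 75th percentile at 0, ordered by the difference of culture from the ex vivo mean, lowest differences in the left panel. Points are arrays and ticks are means of 3; the red cultured points lie left of all others for 12 genes that also pass the tests, and 1 of those points, replicate 3, is often the lowest.

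Some factors of T cell quiescence were lower too. Klf2, which controls exit from lymphoid tissue and quiescence, stood at 1.80, 0.95 and -0.27 in culture, 7.0, 5.29 and 5.83 in naive, 5.38, 4.25 and 5.18 in transferred and 5.16, 5.76 and 4.94 in immunised cells. It fell by 4.59 ± 0.46 against the ex vivo mean (adjusted p = 5.71e-05, limma), with a gap of -4.11, and the CNS arrays overlapped the naive ones. Klf3, a repressor of the same family, stood at -1.21, -0.83 and -3.35 in culture, 4.45, 4.41 and 4.61 in naive, 1.66, 1.86 and 2.37 in transferred and 2.94, 2.67 and 2.37 in immunised cells (gap -3.76, and -2.99 without cultured replicate 3). Here the CNS cells lay between. Of 18 naive and quiescence genes, 8 fell, 3 rose and 4 were culture-only lower, with a median of -0.59. The other 2 were Btg2, an antiproliferative factor (gap -1.35), and Foxp1 (gap -1.30), whose call was lost without transferred replicate 1 (adjusted p = 0.054, limma). Without cultured replicate 2, 7 members were culture-only lower. Tcf7 (-0.42) and Lef1 (0.03), transcription factors of naive T cells, did not pass.

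The remaining large decreases were of varied kinds. Nod1, a sensor of bacterial cell wall fragments, stood at -2.55, -2.20 and -4.31 in culture and 0.66 to 2.09 ex vivo (gap -3.90, and -3.25 without cultured replicate 3). All 3 cultured arrays were below all 9 ex vivo arrays, and replicate 3 was lowest. St3gal6, a sialyltransferase, had a gap of -3.50, and the PDZ and LIM domain genes Pdlim4 and Pdlim5 had gaps of -3.12 and -3.09. Ms4a6c, a membrane protein known from macrophages, stood at -2.20, -2.13 and -4.35 in culture, -0.14 to 0.34 in naive and 2.29 to 3.96 in CNS cells (gap -3.04, and -2.32 without cultured replicate 3). Macrophage markers were also high on the CNS arrays, and their part in that difference was not tested; naive cells were above culture as well. Among genes under background on some cultured arrays, Slc16a10, an aromatic amino acid transporter, was at least 17.5-fold lower, Klrg1, an inhibitory lectin receptor, and Qpct each at least 13.5-fold, and Cers6, a ceramide synthase, at least 13.1-fold. Klrg1 was not well above background on any cultured array. With normexp the gaps were -2.20 for Slc16a10, -1.90 for Klrg1, -1.84 for Qpct and -1.77 for Cers6, smaller than these folds. Ifi203-ps, an interferon-inducible pseudogene, was at least 13.3-fold lower, though its smallest gap over the settings that keep all arrays was -2.30, less than that fold. Its call was lost without transferred replicate 2 or 3 (adjusted p = 0.0578 and 0.0568, limma), and its gap of -3.86 was -2.17 without cultured replicate 3.

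Surface molecules of activation went both ways. Of 16 tested, 10 rose and 2 fell, beside 18.0% and 14.7% of all genes, with a median of 0.96. The median difference was 2.94 from naive, -0.38 from transferred and -0.09 from immunised cells. Against naive cells 12 were higher and 2 lower, against transferred cells 4 and 4, and against immunised cells 3 and 4. By the rule on all 3 groups, 3 were culture-only higher and 2 culture-only lower. Il2ra, the high-affinity IL-2 receptor chain CD25, stood at 5.95, 6.25 and 5.13 in culture, 0.11, 0.30 and 0.02 in naive, 2.75, 3.09 and 3.35 in transferred and 2.97, 3.50 and 3.40 in immunised cells (gap 2.48). The CNS cells had intermediate levels, well separated on both sides. Tfrc, the transferrin receptor, had a gap of 1.28 and Ctla4, an inhibitory receptor, one of 1.27. Cd69, an early activation marker, was lower: it stood at -0.26, 0.66 and -1.59 in culture, 3.20, 0.87 and 1.21 in naive and 2.89 to 4.67 in CNS cells (gap -2.16). Its call was lost without naive replicate 1, where the gap was -1.44, or cultured replicate 3 (adjusted p = 0.0716 and 0.075, limma). Cd40lg, which signals to antigen-presenting cells, was at least 3.29-fold lower, but its gap of -2.49 was -1.29 without cultured replicate 3. Over the settings that keep all arrays its smallest gap was -0.93, less than that fold. Its call was lost without transferred replicate 1, 2 or 3 or immunised replicate 1 (adjusted p = 0.09, 0.0656, 0.0863 and 0.0508, limma).

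Immediate early genes, which switch on within minutes of stimulation, were mostly lower in culture than in CNS cells. Of 19 tested, 14 fell, none rose and 3 were culture-only lower, with a median of -2.39, and with -1.11 from naive, -4.06 from transferred and -3.77 from immunised cells. The mean level was -0.14 to 0.52 in culture, -0.70 to 2.04 in naive and 3.75 to 4.22 in CNS cells, so culture lay within the naive range. The 3 were Zfp36, an mRNA-decay factor (gap -2.08), Egr1 (-1.49) and Ier5 (-1.40). Zfp36 stood at -1.74, -1.48 and -0.96 in culture, 1.71, -0.18 and 0.55 in naive and 2.83 to 3.74 in CNS cells. Egr1 lost its call without naive replicate 1 or 3 or any one of the cultured replicates (adjusted p of 0.0654 to 0.112, limma), and the gap of Ier5 was -0.91 without naive replicate 1. Naive replicate 1 had the highest and naive replicate 2 the lowest mean of the naive arrays, and without naive replicate 2, 11 members were culture-only lower. Fos fell by 6.21 against the ex vivo mean, but its naive arrays stood at 5.29, -1.08 and 2.45 and overlapped those of culture.

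Among secreted cytokines, 3 of 18 fell and 1 rose against the ex vivo mean, beside 14.7% and 18.0% of all genes. That mean joined opposite shifts: the median difference was 2.45 from naive, -3.01 from transferred and -1.22 from immunised cells. Against naive cells 8 were higher and 1 lower, against transferred cells 1 and 9, and against immunised cells 1 and 8. Il2, the T cell growth factor, was the culture-only member, at least 2.39-fold lower, and not called with normexp background correction, where the gap was -0.58. Of 16 chemokine and egress receptors, 4 rose and 6 fell. The culture-only lower ones were Cx3cr1, the fractalkine receptor, at least 5.12-fold, and Ccr9, a gut-homing receptor, with a gap of -2.46. Cx3cr1 is also a microglial gene, and it stood at 2.96 to 4.35 on CNS arrays, -3.28 to -1.27 on naive and -6.11 to -3.86 on cultured arrays. Its gap of -2.55 was -1.97 without naive replicate 2. With all probes of a gene averaged, the gap of Cx3cr1 was -1.59 and its call was lost. The smallest gap of Cx3cr1 over the settings that keep all arrays was -1.27, less than the fold given here.

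Several lists had few or no culture-only members. Beside the counts that follow, 18.0% of all genes rose and 14.7% fell against the ex vivo mean. Of 26 genes of amino acid supply and the ATF4 response, 5 rose and 3 fell, none of them culture-only, with a median of 0.39. Against naive cells 17 of these were higher and 1 lower (median 1.15). Against transferred cells 0 were higher and 9 lower (-0.48), and against immunised cells 7 and 2 (0.44). Of 12 aminoacyl-tRNA synthetases 1 fell, and of 12 heat shock genes 1 fell, with medians of 0.10 and -0.15. Of 10 TGF-beta response genes 2 rose and 3 fell (median -0.20). Of 8 GIMAP GTPases 1 rose and 2 fell (median -0.50). Against naive cells 0 GIMAP genes were higher and 6 lower (median -1.49). Against transferred cells 2 were higher and 0 lower (0.30), and against immunised cells 1 and 0 (-0.32). Of 8 NRF2 and aryl hydrocarbon receptor targets, 2 rose and 1 fell. Against naive cells 5 of them were higher and 0 lower, against transferred cells 1 and 2, and against immunised cells 1 and 2. The culture-only one was Ahrr, the repressor of that receptor, 5.66-fold higher than in transferred cells, the nearest group, with a gap of 2.50 that was 1.61 with normexp. Of 19 ribosome biogenesis genes 4 fell and none rose, and Pes1 was culture-only lower (gap -1.60). Against naive cells 0 of the 19 were higher and 8 lower, against transferred cells 0 and 5, and against immunised cells 1 and 1. Of 20 T cell core genes, 5 rose and 2 fell, with a median of 0.17. Cd2, an adhesion receptor, was culture-only higher by 0.98, or by 0.63 and not called with arrays centred on those same core genes.

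**Figure D5:**
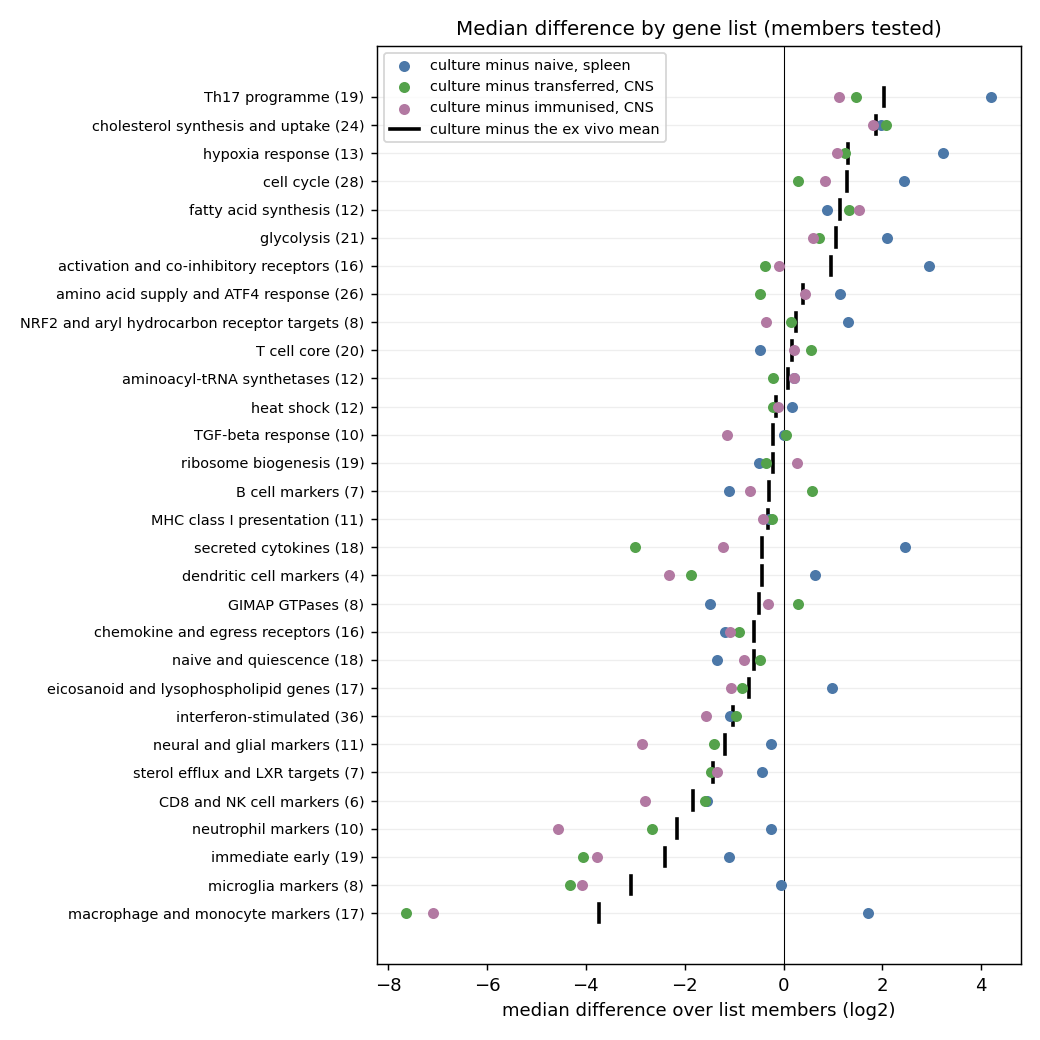
Median difference over the tested members of each of 30 gene lists (number tested in brackets), in log2 units, for culture minus naive, minus transferred and minus immunised cells (points) and minus the ex vivo mean (black ticks). For cholesterol synthesis the 3 points coincide (1.97, 2.06 and 1.82), for the Th17 programme naive lies far from the CNS groups (4.20 against 1.46 and 1.13), and for macrophage markers the points have opposite signs (1.71, -7.63 and -7.08).

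Markers of other cells were checked on the same arrays. Macrophage and monocyte markers were lower in culture than the ex vivo mean for 16 of 17, with a median of -3.72, and the cultured arrays were at a median of -7.63 and -7.08 from the transferred and immunised cells but of 1.71 from the naive cells. C1qa, a complement gene of macrophages, was not well above background on the 3 cultured and on 2 of the naive arrays, and Apoe was the culture-only lower member (gap -1.28). Microglia markers fell for 7 of 8, with list means of -3.26 to -2.99 in culture, -3.34 to -2.88 in naive and 0.65 to 1.50 in CNS cells. Gpr34 was culture-only lower (gap -2.10), a call lost without naive replicate 1 or cultured replicate 2 or 3 (adjusted p = 0.0578, 0.0586 and 0.0554, limma). Of 10 neutrophil markers 5 fell and 1 rose, and Mpo was culture-only lower (gap -2.71). Its levels were 1.15 to 1.72 in naive spleen, -2.88 to -0.02 in CNS and -5.02 to -4.43 in culture.

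Of 6 CD8 and NK cell markers 4 fell, of 7 B cell markers 2 fell, and of 4 dendritic cell markers 1 fell. Over all genes 14.7% fell and 18.0% rose against the ex vivo mean. Against naive cells 0 B cell markers were higher and 2 lower, against transferred cells 3 and 1, and against immunised cells 0 and 1. Of 11 neural and glial markers 5 fell and 1 rose, the riser being Aldoc. The T cell core list had mean levels of 3.61 to 4.10 in culture, 4.31 to 4.45 in naive, 3.01 to 3.55 in transferred and 3.60 to 4.22 in immunised cells. Culture thus lay below naive spleen and in the range of the immunised group. Cd3d, Cd3e, Cd4 and Lck were measured on all 4 groups, and Cd3e (0.14) and Lck (-0.01) did not differ past the test. Other members of the core list did: 5 of 20 rose and 2 fell against the ex vivo mean. Against naive cells 2 were higher and 8 lower, against transferred cells 6 and 0, and against immunised cells 3 and 3. Whether the RNA of other cell types in the CNS samples adds to the culture-only calls was not tested.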

How the data were processed

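RNA from 12 samples was labelled with Cy3 and hybridised to single-colour Agilent mouse arrays. The deposited values are spot intensities (background-subtracted processed signals), extracted with Feature Extraction 10.7.3.1 under protocol GE1_107_Sep09, per the file headers. Levels were computed as log2 of that intensity after subtracting the log2 of the array's own 75th percentile (control probes excluded). Control spots and outlier flags were left out, 39405 probes were used, and of several probes for a gene the one brightest on average over the 12 arrays was kept. The detection filter, passed when every array of 1 or more groups was well above background, kept 18631 genes. Names came from RefSeq (GRCm38.p6): 27234 probes by accession, 3576 by symbol and 565 by synonym, and 8054 kept the file's name. Promoters are RefSeq's, of GRCm38.p6, and probe positions are those of the files, in mm9.

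One limma model (version 3.58.1 in R 4.3.3) over the 4 group means, with 8 residual degrees of freedom, gave all contrasts; tests were two-sided, with Benjamini-Hochberg adjustment over all genes at 0.05. Every adjusted p in the text is from it. An array below background was raised to the lowest detected signal of that array (-5.95 to -5.17) for "at least" folds. The precision is limited by 3 arrays a group. The genes named are the 12 with the largest gaps in each direction, the 6 largest by bound in each direction, the 4 markers and up to 4 culture-only members per list and direction; unnamed and predicted genes were passed over, and some genes are not reported here by name, though list counts include them. Other genes were named after their values were seen. The members and gene lists were chosen with earlier results of these data known. Gene models in an array design can be old, and probes for copies of a gene share signal. The script was tested on simulated data. Alternatives were median scaling, quantile normalization, normexp with an offset of 50, the submitters' matrix, centring on T cell core genes, other filters on dim probes, averaged probes, a replicate block, array weights, another prior, stricter thresholds and leaving out each array; a limit to protein-coding names was added after the data were seen. Replicate numbers mark slides, and the submitters' text names separate experiments. Of 18 same-number pairs, 4 correlated above 0.1 in their deviations from group means (-0.198 to 0.204), so the numbers were not used as pairs.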

Additional observations from a re-analysis of the deposited data

How the results depend on the processing

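No named gene's gap and none of the list medians recomputed changed sign under any setting run, but the balance of calls did. The count of genes called against the ex vivo mean was 5113 to 5861 with 1 array left out (2784 to 3229 higher, 2329 to 2731 lower), and the culture-only counts were 738 to 1006 higher and 349 to 461 lower. Both culture-only counts were lowest without immunised replicate 1. Median scaling left 287 culture-only lower genes, moved the median of all genes to 0.15 and raised the share of higher calls from 55 to 61.4%. Centring on T cell core genes gave 2063 higher and 2174 lower calls against the ex vivo mean, so that 48.7% were higher, and 442 culture-only higher and 289 lower genes. The median of all genes was -0.134 with no filter on dim probes and -0.00236 without cultured replicate 3. Under that centring 15 named genes lost their culture-only call (Apoe, Aurka, Cd2, Cd69, Egr1, Gpr34, H2-D1, Ier5, Il12rb1, Pgk1, Pkm, Ptger2, Ptgir, Sval1 and Tfrc). Array weights ended those of Egr1, Gpr34 and Mylip, and no filter on dim probes those of Cd40lg, Egr1, H2-D1, Ifit3 and Rtp4. Fitting each pair of groups on its own 6 arrays gave 583 and 237. An adjusted p under 0.01 left 3605 genes against the ex vivo mean (2012 higher, 1593 lower) and 491 and 189 culture-only, and a 2-fold minimum left 3566 (1839 higher, 1727 lower) and 663 and 301. With the replicate number as a block, 5916 genes were called against the ex vivo mean (3232 higher, 2684 lower) and 945 and 419 were culture-only, and of the named genes H2-D1 alone lost its call; 5 of 12 arrays correlated best with their own number. Of the culture-only genes, 776 higher and 340 lower ones kept their class without cultured replicate 3. Counting each named gene in each setting, a culture-only call ended in 39 cases with 1 array left out and held in 921. In the other settings it ended in 47 cases and held in 1051. The precision is set by 3 arrays a group, and values near the detection floor have no order. The cause of these changes was not tested.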
